A study of Homo sapiens with 33 samples.

Results

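The cyclins and kinases that drive cells through G1 were followed at 9 genes: the D-type cyclins CCND1, CCND2 and CCND3, the E-type cyclins CCNE1 and CCNE2, the kinases CDK2, CDK4 and CDK6, and the phosphatase CDC25A. They were taken from the gene count table by matching its identifiers to these symbols, whatever their values, and all 9 of 85160 genes in the table were found. The set of 9 was itself chosen with earlier results of these data known. The measurements come from NB4, an established line of human acute promyelocytic leukaemia, a cancer of myeloid cells arrested at the promyelocyte stage. NB4 cells were left untreated (0 h) or grown with 1 µM ATRA (all-trans retinoic acid, a vitamin A derivative under which such cells mature) or with its solvent control DMSO for 4, 12, 24, 72 or 120 h, and ATRA and DMSO cultures both received medium with fresh drug on day 3. Each of the 11 groups held 3 libraries of total RNA from biological replicates of this single line, so 33 libraries were compared.

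Progress through G1 depends on cyclin-dependent kinases, which are active only when bound to a cyclin. D-type cyclins bind CDK4 and CDK6 and respond to growth signals, and together they begin to phosphorylate the retinoblastoma protein, which releases E2F transcription factors. E-type cyclins then bind CDK2, and CDC25A removes inhibitory phosphates from CDK2, which carries the cell into S phase. In the myeloid lineage, leaving this cycle accompanies terminal maturation, and CDK6 is known for roles in blood progenitors.

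The 33 libraries held 18341456 to 33490654 fragments (median 25927472), and libraries of 1 group correlated at 0.9855 or above. All 9 genes had enough counts to be tested, among 22971 tested genes. The summed level of 8 promyelocyte markers ran from 12390 to 13640 CPM, the normalised counts per 1e+06 fragments of a library, in untreated cells, with the progenitor receptor KIT at 0 there and at 14 counts over all libraries. In ATRA at 120 h that sum lay between 622 and 858 CPM, against 10110 to 12330 in DMSO, while the sum of 6 maturation markers lay between 7278 and 8184 against 138.7 to 150.0 CPM. MPO gave most counts of the 8 promyelocyte markers over all libraries (6520680, with PRTN3 next at 917342). Taken singly, 6 of the 7 tested were lower with ATRA at 120 h and 0 higher (35.6% and 34.9% of all genes). At 12 h 4 were higher and 3 lower (20% and 18.7%). All 6 maturation markers were higher with ATRA at every time, and their part in the results below was not tested. Of the markers of other cell types, the summed B cell markers reached 33.2 CPM in ATRA at 72 h, nearly all CD79A, with MS4A1 at 0 there, and summed T cell markers stayed at or below 1.68 CPM. Summed epithelium and fibroblast markers reached 22.2 CPM, in untreated cells. These are bulk samples, so fewer cycling cells and less of a transcript per cell cannot be told apart.

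Levels can be compared between genes only per length, and the 2 available gene models differ greatly in length. Fragments were counted over the deposited models, so dividing by the shorter GENCODE length raises genes with long deposited models. The deposited and GENCODE lengths were 45493 and 7157 bases for CCND2, and 4186 and 4117 for CDC25A. Per kilobase of GENCODE exon, untreated cells held CCND2 at 109 ± 2.82 CPM per kilobase (SD, n = 3), ahead of CDK4 at 56.0 ± 3.07, CDC25A at 28.4 ± 0.768, CCND3 at 23.7 ± 1.11 and CDK2 at 16.7 ± 0.337. CCND1 stood at 8.98 ± 0.425, CDK6 at 4.62 ± 0.211, CCNE1 at 3.58 ± 0.371 and CCNE2 at 2.64 ± 0.221. With the longer exon models of the deposited table CDK4 led at 34.7 ± 1.90 and CCND2 stood at 17.1 ± 0.443. The order of CCND2 and CDK4 therefore turned with the length used, while CCNE2 was lowest under both.

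**Figure D1:**
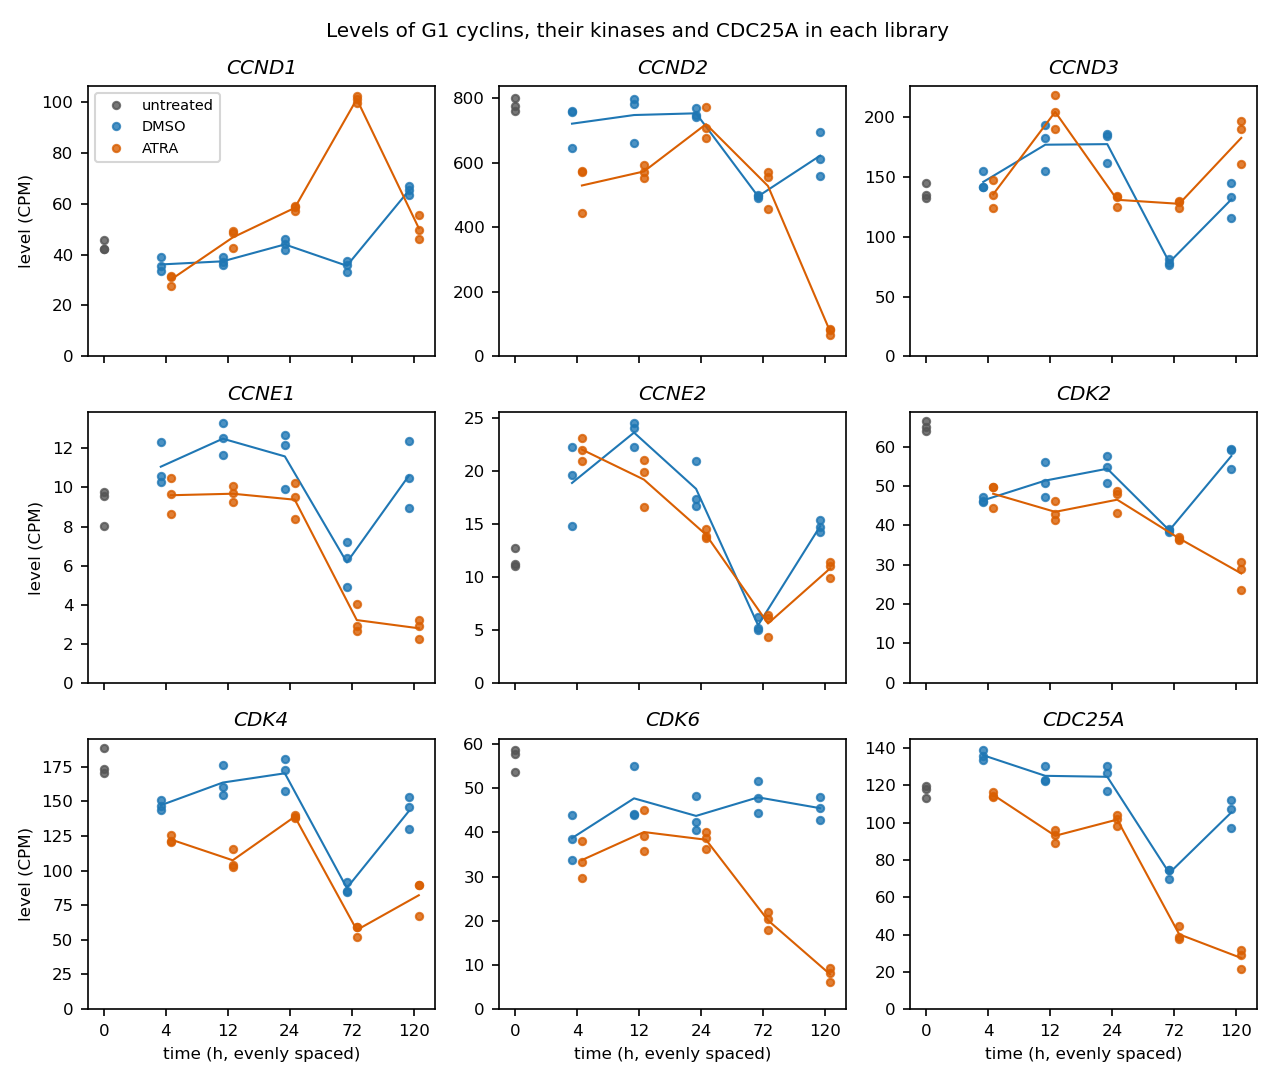
Level of each gene in every library, in CPM on a linear axis from 0, against time on an evenly spaced axis (0, 4, 12, 24, 72 and 120 h). Points are libraries, 3 per group, and lines join the group means of DMSO and of ATRA. CCND2 and CDK6 drop in ATRA at 120 h to 77.7 and 7.88 CPM on average, and in DMSO at 72 h every gene but CDK6 lies below its level at 24 h and 120 h.

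Against DMSO at the same time, more of these genes were lower than higher with ATRA at all 5 times, and most were lower at 120 h. At 4 h 4 of 9 genes were lower and 0 higher, where 12.4% and 12.3% of all tested genes passed lower and higher. At 12 h 6 were lower and 2 higher (18.7% and 20% of all genes), and at 24 h 5 were lower and 1 higher (15.8% and 17.4%). At 72 h 4 were lower and 2 higher (32.6% and 32.1%), and at 120 h 8 were lower and 1 higher (35.6% and 34.9%). The median log2 change over the 9 genes was -0.21, -0.30, -0.29, -0.08 and -1.05 at the 5 times, while over all tested genes it lay between -0.03 and 0.03. Calls are adjusted p under 0.05 in edgeR's quasi-likelihood test, adjusted by Benjamini-Hochberg over all tested genes. The calls at 4 and 12 h were small changes, and with replicates 4 and 5 only the counts of genes passing were 1 and 5. Leaving out ATRA replicate 5 of 12 h also gave 5.

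**Figure D2:**
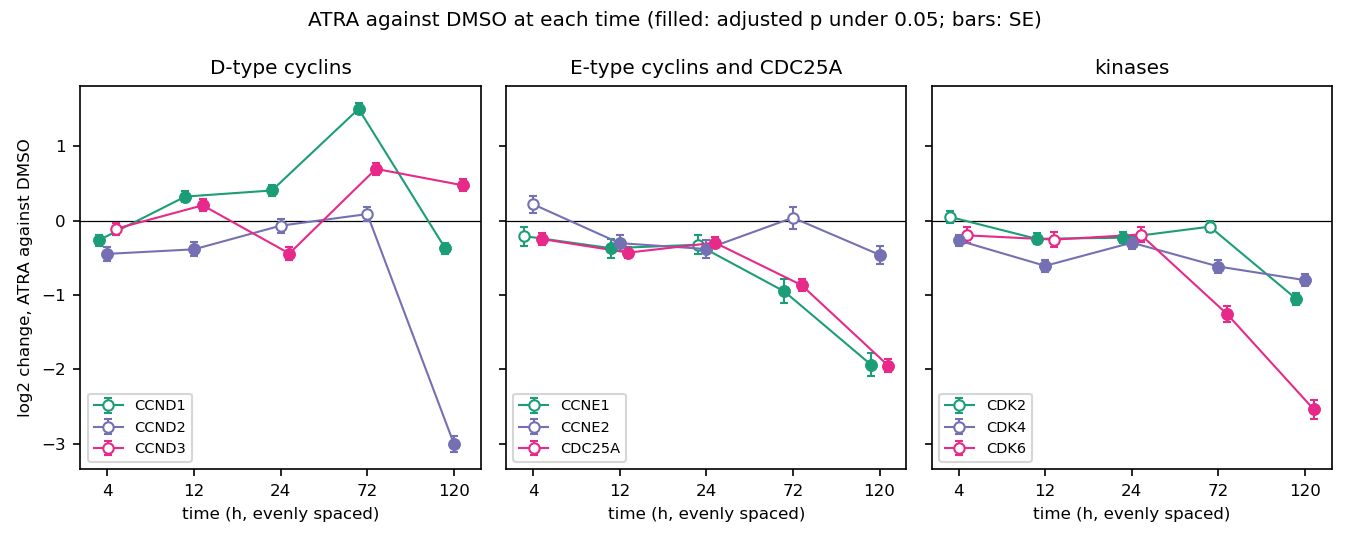
Log2 change of ATRA against DMSO (vertical axis) at each time (evenly spaced horizontal axis) for the 9 genes in 3 panels. Bars are standard errors, and filled points passed at an adjusted p under 0.05. The lines of CCND2, CDK6, CCNE1 and CDC25A reach -3.00, -2.54, -1.93 and -1.95 at 120 h, while CCND3 is at 0.48.

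CCND2 (ENSG00000118971, chr12:4269464-4319496 on GRCh38, forward strand) encodes the D-type cyclin with the highest count in untreated cells, where the libraries held 800.5, 775 and 761 CPM. At 120 h its ATRA libraries held 85.8, 82.2 and 65.1 CPM and its DMSO libraries 611, 696 and 557 CPM. Every ATRA library lay far below every DMSO library at that time. The log2 change was -3.00 ± 0.11 (SE), an 8.003-fold lower level (edgeR adjusted p = 9.84e-26), and it was the largest change of the 9 genes in any comparison with DMSO. Earlier the difference was small: CCND2 was lower by a log2 change of -0.45 ± 0.10 at 4 h (edgeR adjusted p = 0.000434) and -0.38 ± 0.10 at 12 h (edgeR adjusted p = 0.00133). At 24 h the ATRA libraries, at 707, 677 and 774 CPM, overlapped the DMSO libraries, at 747, 769.6 and 741 CPM. The change there was -0.07 with a 95% interval from -0.26 to 0.13, and at 72 h it was 0.09 with an interval from -0.10 to 0.29. The low level thus appeared between the ATRA libraries of 72 h, at 557, 569.5 and 456 CPM, and those of 120 h. The gene shares 2.18% of its deposited exon length with TIGAR on the same strand, and fragments there were counted for both.

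CCND3 (ENSG00000112576, chr6:41927169-42050379, reverse strand), the D-type cyclin prominent in maturing blood cells, was the only 1 of the 9 that was higher with ATRA at 120 h. Its ATRA libraries then held 197, 190.2 and 161 CPM and its DMSO libraries 133, 145 and 116 CPM, without overlap. This was a log2 change of 0.48 ± 0.08, or 1.39-fold (edgeR adjusted p = 2.75e-06). Its direction against DMSO was not steady over time. At 24 h it was lower with ATRA, with libraries at 134, 134 and 125 CPM against 162, 186 and 185 CPM and a log2 change of -0.44 ± 0.08 (edgeR adjusted p = 3.84e-05). At 72 h it was higher, at 129, 124 and 129.8 CPM against 81.7, 77.8 and 76.6 CPM (0.70 ± 0.08, edgeR adjusted p = 2.18e-09). The ATRA level was nearly the same at these 2 times, and the DMSO level was lower at 72 h. The change of 0.21 ± 0.08 at 12 h passed narrowly (edgeR adjusted p = 0.0406) with overlapping libraries. It did not pass with RLE size factors (0.19), without a filter on low counts (0.19), with DESeq2 (0.19), with replicates 4 and 5 only (0.15), or without DMSO replicate 2 (0.11), DMSO replicate 5 (0.21), ATRA replicate 4 (0.15) or ATRA replicate 5 (0.20).

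CCND1 (ENSG00000110092, chr11:69636720-69677563, forward strand), the remaining D-type cyclin, peaked in ATRA at 72 h. Its ATRA libraries held 101, 103 and 99.5 CPM there and its DMSO libraries 36.1, 33.2 and 37.5 CPM. The log2 change was 1.51 ± 0.07, a 2.84-fold higher level (edgeR adjusted p = 1.01e-20), and no library of another group came near these 3, the next highest group being DMSO at 120 h with a mean of 65.2 ± 1.92 CPM. The rise was already present at 12 h (0.33 ± 0.07, edgeR adjusted p = 0.000381) and 24 h (0.41 ± 0.07, edgeR adjusted p = 1.74e-05). At 4 h and at 120 h the sign was opposite. The 4 h libraries held 27.6, 31.4 and 31.3 CPM with ATRA against 33.7, 35.5 and 39.2 CPM (-0.26 ± 0.07, edgeR adjusted p = 0.00733). At 120 h they held 49.7, 55.4 and 46.0 CPM against 63.3, 67.1 and 65.2 CPM (-0.37 ± 0.07, edgeR adjusted p = 2.03e-05). The 4 h difference did not pass without DMSO replicate 5 (-0.20) or ATRA replicate 2 (-0.20), with replicates 4 and 5 only (-0.25) or with the groups compared alone (-0.26).

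These courses exchanged CCND2 for CCND3 as the leading D-type cyclin at 120 h. The log2 ratio of CCND3 to CCND2 in CPM was 1.24 ± 0.06 (SD, n = 3) in ATRA and -2.24 ± 0.04 in DMSO at 120 h. The difference of 3.48 is an 11.2-fold shift, with no overlap between libraries (two-sided exact permutation p = 0.1, the smallest that 3 against 3 libraries can give, and 0.143 after Benjamini-Hochberg adjustment over the 30 ratio comparisons computed). Per kilobase of GENCODE exon, CCND2 made up 70.6% ± 0.758 of the 3 D-type cyclins in DMSO at 120 h and 20.5% ± 0.854 in ATRA. CCND3 made up 18.4% ± 0.471 in DMSO and 59.7% ± 0.823 in ATRA, and CCND1 11.04% ± 0.985 and 19.8% ± 1.32. With the deposited exon lengths the share of CCND2 was 70.6% ± 0.675 and 20.1% ± 0.808, so the exchange held with either length. Both shares used the same counts over the deposited models, and counts over GENCODE exons alone were not compared. At every other time and in untreated cells CCND2 held the largest mean share under both lengths. The kinases that these cyclins bind also shifted relative to each other: the log2 ratio of CDK6 to CDK4 was -3.38 ± 0.10 in ATRA and -1.65 ± 0.17 in DMSO at 120 h, a difference of -1.73 (exact permutation p = 0.1, adjusted 0.143).

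**Figure D3:**
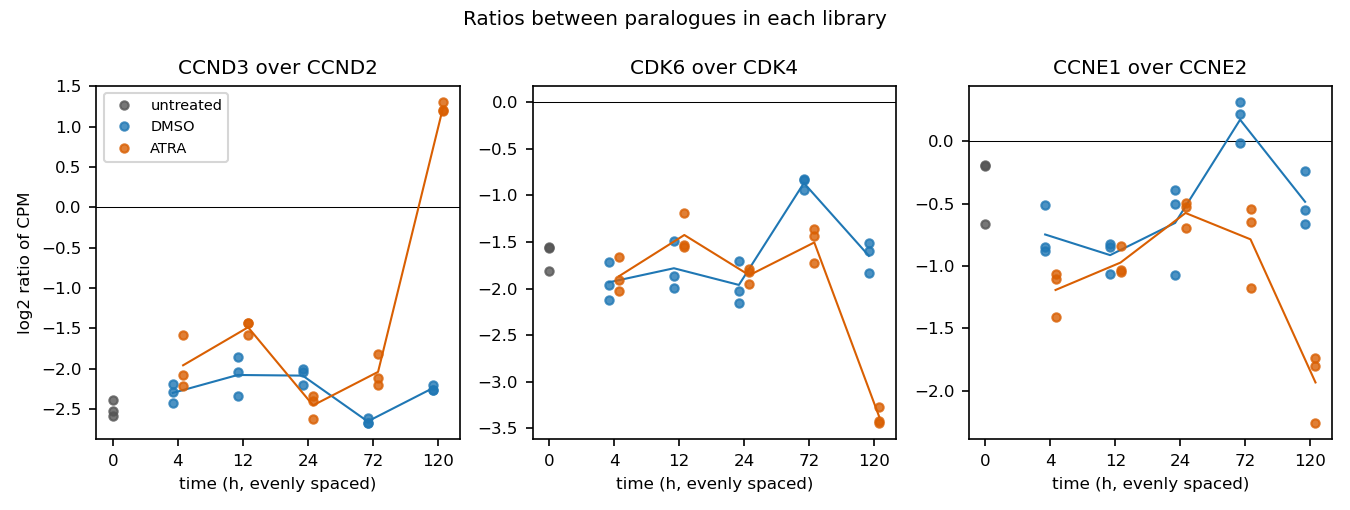
Log2 ratio of CPM between related genes in every library (points) with group means joined by lines, against time on an evenly spaced axis. Panels show CCND3 over CCND2, CDK6 over CDK4 and CCNE1 over CCNE2. The 3 ATRA libraries of 120 h are the only ones with more CCND3 than CCND2 counts, from 1.20 to 1.31, and they are the lowest in both other panels.

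The E-type cyclins, which activate CDK2 at the end of G1, had the lowest levels of the 9 genes in untreated cells per kilobase of GENCODE exon. With the deposited lengths CCNE1 (1.92 CPM per kilobase) stood above CCND1 (1.23) and CDK6 (0.974). CCNE1 (ENSG00000105173, chr19:29811898-29825806, forward strand) held 3.21, 2.91 and 2.25 CPM in ATRA at 120 h, from 48 to 64 counts a library, and 8.93, 12.4 and 10.5 CPM in DMSO. Its log2 change was -1.93 ± 0.16, a 3.82-fold lower level (edgeR adjusted p = 6.93e-14). At 72 h it was already 1.93-fold lower, at 4.04, 2.93 and 2.66 CPM against 7.21, 4.90 and 6.38 CPM (-0.95 ± 0.16, edgeR adjusted p = 2.5e-06). The ATRA libraries lay below the DMSO libraries at both times. At 12 h the change was -0.37 ± 0.13 (edgeR adjusted p = 0.0184), and it did not pass without DMSO replicate 5 (-0.34) or ATRA replicate 5 (-0.35). At 24 h the change of -0.32 did not pass (edgeR adjusted p = 0.0523, 95% interval from -0.58 to -0.06). It passed under 8 of 14 alternatives, among them RLE size factors (-0.36), the replicate block (-0.32), limma-voom (-0.34), DESeq2 (-0.36) and the groups compared alone (-0.32).

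CCNE2 (ENSG00000175305, chr8:94876473-94896680, reverse strand) changed less. At 120 h its ATRA libraries held 11.4, 9.92 and 11.05 CPM and its DMSO libraries 14.2, 14.7 and 15.4 CPM, without overlap. That is a log2 change of -0.46 ± 0.12 (edgeR adjusted p = 0.00124). At 72 h both arms were low, at 6.36, 4.29 and 6.10 CPM with ATRA and 6.20, 4.94 and 5.12 CPM with DMSO, and the change of 0.04 had a 95% interval from -0.26 to 0.34. Calls at 12 h (-0.30 ± 0.11, edgeR adjusted p = 0.0278) and 24 h (-0.38 ± 0.12, edgeR adjusted p = 0.00935) were lost with some single libraries left out. The former did not pass without DMSO replicate 2 (-0.28), DMSO replicate 5 (-0.30) or ATRA replicate 5 (-0.22), the latter without DMSO replicate 2 (-0.30), and neither with replicates 4 and 5 only (-0.32 and -0.28). The log2 ratio of CCNE1 to CCNE2 was -1.93 ± 0.28 in ATRA and -0.49 ± 0.22 in DMSO at 120 h, without overlap (difference -1.45, exact permutation p = 0.1, adjusted 0.143).

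CDK4 (ENSG00000135446, chr12:57743006-57756013, reverse strand), a partner kinase of the D-type cyclins, was lower with ATRA at all 5 times, as CDC25A was. Its libraries at 12 h held 103, 116 and 104 CPM with ATRA and 155, 176 and 160.2 CPM with DMSO, and at 120 h 89.99, 89.8 and 67.0 CPM against 146, 153 and 130.02 CPM. The groups did not overlap at any time. On the log2 scale its change was -0.26 ± 0.08 at 4 h (edgeR adjusted p = 0.0109), -0.61 ± 0.08 at 12 h (5.21e-08), -0.29 ± 0.08 at 24 h (0.00315), -0.62 ± 0.08 at 72 h (2.29e-08) and -0.80 ± 0.08 at 120 h (2.02e-11). The 4 h call did not pass with replicates 4 and 5 only (-0.27).

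The RefSeq promoter table (GRCh38.p14) held entries for 5 of the 9 genes: CCND3, CCNE1, CDK4, CDK6 and CDC25A. In the 250 bases before the start, on either strand, 4 motifs were searched: the E-box CACGTG bound by factors of the MYC and USF families, the E2F-type element TTTNGCGC, the GC box GGGCGG and the CCAAT box CCAAT. Of 35116 promoter windows of that length 6.35% held an E-box, 1.51% the E2F-type letters, 42.6% a GC box and 32.01% a CCAAT box. CDK4 was the only 1 of the 5 with an E-box and had 3 of them, 216, 196 and 101 bases before the start. They are printed because CDK4 was low under ATRA at every time, with the E-box in capitals, at chr12:57752513-57752534, chr12:57752493-57752514 and chr12:57752398-57752419 on the reverse strand. A match describes the letters and was not tested as a site. Deposited exons of the same gene covered 211 of the 250 bases for CDK4, 93 for CCNE1 and 0 for CDC25A. At each start of CCND3 and CDK6 they covered all 250.
CDK4 E-box window 1: caagcggtCACGTGtgatagca
CDK4 E-box window 2: caacagatCACGTGgctgccat
CDK4 E-box window 3: gtggcggtCACGTGcccagaac

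CDK6 (ENSG00000105810, chr7:92599442-92837081, reverse strand), the other partner of the D-type cyclins, was far lower with ATRA at 72 and 120 h. At 72 h its ATRA libraries held 22.02, 17.96 and 20.3 CPM and its DMSO libraries 51.6, 47.8 and 44.5 CPM. At 120 h they held 9.28, 8.19 and 6.18 CPM against 48.1, 42.9 and 45.5 CPM. The ATRA libraries of these 2 times were the 6 lowest of all 33. The log2 change was -1.26 ± 0.11 at 72 h (2.39-fold lower, edgeR adjusted p = 7.37e-13) and -2.54 ± 0.13 at 120 h (5.80-fold lower, edgeR adjusted p = 7.59e-21). Up to 24 h the changes of -0.20, -0.25 and -0.18 did not pass, with edgeR adjusted p values of 0.194, 0.0522 and 0.192. With a replicate block all 3 passed (-0.20, -0.25 and -0.18), and at 12 h the change passed under 9 of 14 alternatives, among them RLE size factors (-0.27), limma-voom (-0.25) and DESeq2 (-0.27). At 24 h it also passed with the groups compared alone (-0.18). In DMSO the gene was steady after 12 h, between 43.7 and 47.9 CPM on average.

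CDK2 (ENSG00000123374, chr12:55966769-55972784, forward strand), the kinase of the E-type cyclins, was 2.07-fold lower with ATRA at 120 h. The ATRA libraries held 29.02, 30.7 and 23.6 CPM and the DMSO libraries 59.5, 59.2 and 54.2 CPM, with a log2 change of -1.05 ± 0.08 (edgeR adjusted p = 4.03e-15). At 72 h they held 37.2, 36.3 and 36.5 CPM against 38.4, 38.98 and 38.8 CPM, and the change of -0.08 had a 95% interval from -0.24 to 0.08. Small changes at 12 h (-0.24 ± 0.08, edgeR adjusted p = 0.00924) and 24 h (-0.23 ± 0.08, edgeR adjusted p = 0.017) passed. At 12 h the call did not hold without DMSO replicate 4 (-0.18) or with replicates 4 and 5 only (-0.24), and at 24 h without DMSO replicate 4 (-0.20), without ATRA replicate 5 (-0.19) or without the filter on low counts (-0.22).

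CDC25A (ENSG00000164045, chr3:48157113-48188417, reverse strand), the phosphatase that activates CDK2, was also lower with ATRA at all 5 times and never overlapped DMSO. At 4 h its libraries held 117, 114 and 114 CPM against 134, 139 and 136 CPM. At 72 h they held 44.3, 38.5 and 37.6 CPM against 74.5, 69.9 and 74.6 CPM, and at 120 h 31.6, 29.02 and 21.6 CPM against 107, 112 and 97.3 CPM. The gap widened with time after 24 h. The log2 change was -0.25 ± 0.08 at 4 h (edgeR adjusted p = 0.0136), -0.43 ± 0.08 at 12 h (1.45e-05), -0.29 ± 0.08 at 24 h (0.00208), -0.87 ± 0.08 at 72 h (2.53e-12) and -1.95 ± 0.08 at 120 h (6.2e-23). The last is a 3.86-fold lower level. At 4 h the call did not pass without DMSO replicate 4 (-0.22), without ATRA replicate 4 (-0.23) or with replicates 4 and 5 only (-0.26).

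CDC25A was the only 1 of the 5 genes with the E2F-type letters, 44 bases before its start, and it had CCAAT boxes 110 and 58 bases before it. Its last 150 bases before the start (chr3:48188418-48188567, reverse strand) are shown because the gene had a course like that of CCNE1, as given below. Capitals mark the E2F-type letters and the CCAAT boxes, which lie here on the opposite strand as ATTGG.
CDC25A upstream of the start: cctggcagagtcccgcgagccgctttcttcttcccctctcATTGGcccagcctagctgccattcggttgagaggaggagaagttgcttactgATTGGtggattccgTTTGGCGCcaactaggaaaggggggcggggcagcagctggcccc

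The change of the ATRA effect between consecutive times was tested as an interaction in the same fit. From 72 to 120 h 7 of 9 genes passed, all toward lower levels with ATRA (21.8% of all genes did so, and 17.5% went upward), led by CCND2 at -3.09 ± 0.14 (edgeR adjusted p = 1.87e-20), CCND1 at -1.88 ± 0.10 (5.34e-18) and CDK6 at -1.28 ± 0.17 (4.68e-08). From 24 to 72 h 2 passed upward and 4 downward (21.5% and 24.5% of all genes), and from 4 to 12 h 1 upward and 2 downward (8.13% and 5.89%). The last count was 1 in all without ATRA replicate 5 of 12 h and 5 without ATRA replicate 5 of 4 h. From 12 to 24 h CCND3 alone passed, downward at -0.65 ± 0.12 (edgeR adjusted p = 0.00014, 4.4% of all genes passing downward and 2.5% upward). Consecutive steps share the libraries of the time between them. Steps that cross from 12 to 24 h also cross sequencing lanes, since libraries of 0, 4 and 12 h ran in lane 4, and later ones in lane 2 (replicate 2) or lane 3 (replicates 4 and 5). No library of the late times ran in lane 4, so lane and time cannot be told apart there. ATRA and DMSO libraries of the same time and replicate number shared a lane.

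DMSO cultures themselves changed, and most at 72 h. The same DMSO libraries are the controls of the ATRA comparisons, so the 2 sets of values are not independent. Untreated libraries ran in lane 4, and DMSO libraries of 24, 72 and 120 h in lanes 2 and 3. Lane and time cannot be told apart when these DMSO groups are set against untreated cells. Against untreated cells, 8 of 9 genes were lower in DMSO at 72 h and 0 higher (24.7% and 26.9% of all genes). CDK6 (-0.24) did not pass, though its DMSO libraries all lay below the untreated ones. It did pass with the replicate block (-0.25), limma-voom (-0.24), no filter on low counts (-0.24), replicates 4 and 5 only (-0.29) and the groups compared alone (-0.25). It also passed without untreated replicate 5 (-0.30) or DMSO replicate 2 (-0.32). Against DMSO at 24 h again 8 were lower and 0 higher (25.5% and 26.2%), and from 72 to 120 h the same 8 returned upward with 0 lower (22.1% and 18.7%). CCNE2 went furthest, with a log2 change of -1.75 ± 0.13 from 24 to 72 h (edgeR adjusted p = 2.74e-14) and 1.45 ± 0.13 from 72 to 120 h (edgeR adjusted p = 2.4e-11). CCND3 changed by -1.18 ± 0.08 and 0.74 ± 0.08, and CDK4 by -0.96 ± 0.08 and 0.71 ± 0.08, all passing. CDK6 was the exception, at 0.14 (95% interval from -0.08 to 0.35) and -0.08 (-0.29 to 0.14). Most genes of the replication licensing list, which also holds the replication clamp PCNA and the proliferation marker MKI67, moved with them in DMSO. Of its 10 genes 9 were lower and 1 higher at 72 h than at 24 h (25.5% and 26.2% of all genes). From 72 to 120 h 9 went upward and 1 downward (22.1% and 18.7%). Their summed level was 2084 to 2141 CPM at 72 h against 3315 to 3395 at 24 h and 3046 to 3342 at 120 h. The share of mitochondrial and small RNA counts was 10.3% to 11.1% in DMSO at 72 h and 8.27% to 9.28% at 24 h, and the part of either in the dip was not tested. Fresh medium came on day 3, and the labels do not say whether the 72 h cells were collected before it.

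Because of that dip, the ATRA libraries of 72 h were also set against the average of the DMSO groups before and after, those of 24 h and 120 h. This reference was chosen after the 72 h values were seen. Then 8 of 9 genes were lower and 1 higher, with 33.6% and 35.7% of all genes passing in these directions. CCND1 was still higher with ATRA (0.92), and CCNE1 (-1.81), CDK2 (-0.61), CDK4 (-1.45), CDK6 (-1.15) and CDC25A (-1.52) were lower. CCND3 turned from 0.70 to -0.26, CCNE2 from 0.04 to -1.56 and CCND2 from 0.09 to -0.37. The higher CCND3 with ATRA at 72 h therefore depended on which DMSO cultures it was set against, while the lower CDK6 moved little.

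At the other times DMSO differed from untreated cells in mixed directions. At 4 h 2 genes were higher and 4 lower (15.7% of all genes in each direction), at 12 h 3 and 2 (11.2% and 11.5%), at 24 h 3 and 2 (9.87% and 9.24%) and at 120 h 2 and 3 (12.3% and 9.58%). CCNE2 was higher at all 4 of these times. At 12 h its DMSO libraries held 24.5, 22.3 and 24.0 CPM against 10.99, 12.7 and 11.2 CPM in untreated cells, 2.02-fold higher (1.02 ± 0.12, edgeR adjusted p = 1.35e-08). CDK2 was lower at 4 h, at 46.1, 45.8 and 47.1 CPM against 65.1, 63.9 and 66.6 CPM (-0.49 ± 0.08, edgeR adjusted p = 2.68e-06). At 120 h the count of passing genes was 1 without DMSO replicate 5 and 3 without DMSO replicate 4 or untreated replicate 2, and the CCNE2 call of 0.34 at that time did not pass without any of 5 of the 6 libraries (0.30 to 0.37). At 24 h the count was 3 without DMSO replicate 5. Under the 14 alternatives, the calls of CDC25A at 4 h and CCND1 at 12 h each held in 9. Those of CCNE1 at 24 h and CDK6 at 120 h held in 7 and 10.

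Genes that act on these kinases moved in both directions under ATRA. Of 7 inhibitors of G1 kinases 5 were tested, and CDKN2A and CDKN2B had 6 and 5 counts over all 33 libraries. The number higher and lower was 4 and 0 at 4 h (12.3% and 12.4% of all genes), 3 and 1 at 12 h (20% and 18.7%) and 2 and 1 at 24 h (17.4% and 15.8%). It was 3 and 1 at 72 h (32.1% and 32.6%) and 3 and 0 at 120 h (34.9% and 35.6%), and the median log2 change of the 5 genes ran from 0.41 to 0.64. CDKN2D, an inhibitor of CDK4 and CDK6, was higher at every time, with log2 changes of 2.24, 1.77, 1.33, 2.30 and 2.51. CDKN1A, which inhibits CDK2 complexes, was higher at 4 h (0.52), lower at 12 h (-1.26) and 24 h (-1.41) and higher at 72 h (3.41) and 120 h (2.495). CDKN1B, another inhibitor of CDK2 complexes, was higher at 120 h (0.42). CDKN1C was higher at 4 h (2.70) and 12 h (2.20) and lower at 72 h (-0.97).

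**Figure D4:**
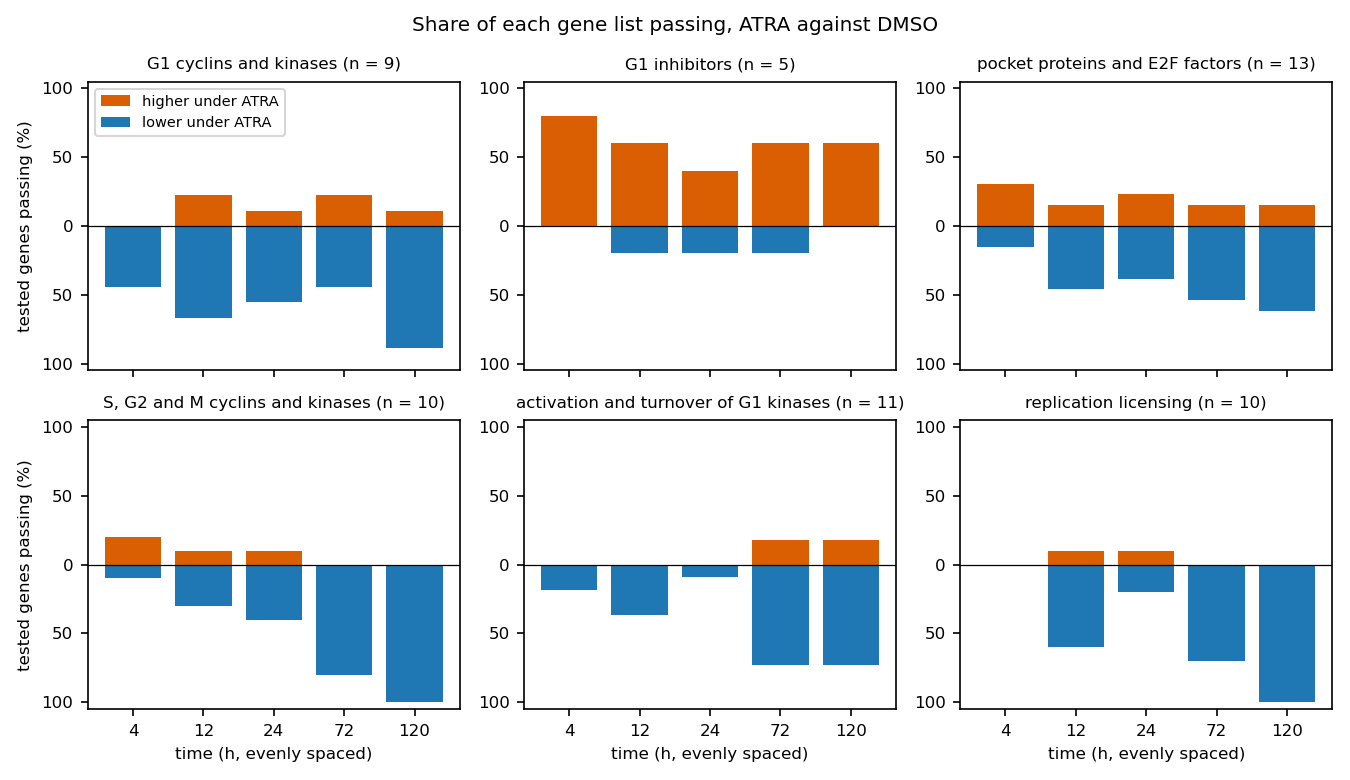
Share of the tested genes of 6 lists (in percent) that were higher (upward bars) or lower (downward bars) with ATRA than with DMSO at an adjusted p under 0.05, against time on an evenly spaced axis. At 120 h 8 of 9 G1 genes, 10 of 10 S, G2 and M genes and 10 of 10 genes of the licensing list are lower, and 3 of 5 tested inhibitors are higher.

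Downstream of the kinases, 2 of 13 pocket proteins and E2F factors were higher and 8 lower at 120 h (median -0.39). TFDP1, the partner through which E2F factors bind DNA, was at -1.33 ± 0.07, E2F5 at -2.48 ± 0.13 and E2F1 at -1.14 ± 0.09. The 2 higher genes, named after their values were seen, were RB1, the retinoblastoma gene (0.59 ± 0.08), which shares 11.6% of its exon length with CYSLTR2, and E2F6 (0.25 ± 0.07). Of 10 cyclins, kinases and phosphatases of S, G2 and M phase 10 were lower at 120 h (median -1.62) and 8 at 72 h. Those that led at 120 h were the cyclins CCNA2 (-2.04 ± 0.07), CCNF (-1.94 ± 0.08) and CCNB2 (-1.78 ± 0.08). Of the 10 genes of the replication licensing list, PCNA and MKI67 among them, 10 were lower at 120 h (median -1.84) and 7 at 72 h. At 4 h 0 of them passed in either direction. The helicase subunits MCM6 (-2.62 ± 0.08), MCM4 (-2.38 ± 0.08) and MCM7 (-2.21 ± 0.08) led at 120 h. Of 11 genes that activate or turn over G1 cyclins and kinases 8 were lower and 2 higher at 72 h and at 120 h. The lower ones included SKP2 (-1.82 ± 0.06 at 120 h), a subunit of the ligase for CDK inhibitors, and its cofactor family member CKS2 (-1.52 ± 0.10). The higher ones were AMBRA1 (1.30 ± 0.08), the adaptor for degradation of D-type cyclins, and FBXW7 (0.90 ± 0.08), the adaptor for cyclin E, which was named after its value was seen. At 120 h 35.6% of all tested genes were lower and 34.9% higher, and the median over all genes was -0.03. At 72 h 32.6% were lower and 32.1% higher, and at 4 h 12.4% and 12.3%.

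Over the 11 group means, CCNE1 and CDC25A had the most similar courses of the 36 pairs of genes (Pearson r = 0.977), followed by CCND2 and CDK6 (0.91) and CDK6 and CDC25A (0.884). The lowest correlations were those of CCND1 with CDC25A (-0.512), CCNE1 (-0.504) and CDK4 (-0.5). Even so, CCND1 and CDC25A both fell in ATRA from 72 to 120 h, from means of 101 to 50.4 and of 40.1 to 27.4 CPM. Both also dipped in DMSO at 72 h. Among 11170 genes compared over the 33 libraries, the courses most like CDC25A were those of CCNA2, AC026464.6 and TRIM28 (each r = 0.987), those most like CDK4 of PRDX4 (0.981), CLPTM1L (0.971) and MTCH2 (0.968), and those most like CDK6 of HSPA4L (0.984), CHST4 (0.981) and CDCA7 (0.979). CCND2 ran closest to the myeloid genes MS4A3 (0.976), MATK (0.97) and MPO (0.968), and CCNE1 to JPT2 (0.972). CDK2 ran closest to MTFMT (0.951), CCNE2 to HNRNPM (0.938), CCND1 to PGAM1 (0.915) and CCND3 to RER1 (0.887). All these values share libraries and treatments, so they describe likeness of course.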

How the data were processed

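The deposited table holds unnormalised counts of fragments. Per the file headers, the authors ran featureCounts 1.5.1 with strand and pairs taken into account, on Ensembl models merged with FANTOM CAT (GRCh38), so that a fragment overlapping several genes counts in each. The submitters' processing notes also name Trimmomatic 0.36, STAR 2.5.2b and Subread 1.5.1. Per the labels' protocols, total RNA libraries were stranded. Groups and replicate numbers (2, 4 and 5) came from the sample titles, and technical runs were not separate. Symbols and shorter exon lengths came from GENCODE 29. The deposited exon lengths, in bases, are those in the deposited table.

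Testing used edgeR 4.0.16 and R 4.3.3 (filterByExpr, TMM factors from 0.827 to 1.11, 1 mean per group over 33 libraries, biological coefficient of variation 0.0769, quasi-likelihood F test, Benjamini-Hochberg within a comparison, threshold 0.05), which was checked on simulated counts. The simulation changed few genes and gave all genes the same spread. It therefore does not bear on comparisons such as ATRA at 120 h, where 35.6% of all genes passed lower and 34.9% higher. CPM used TMM-scaled totals, and standard errors are those implied by the F statistic. Ratios between genes were compared by two-sided exact permutation tests over libraries. Likeness of course was the Pearson correlation of log2 CPM with a prior count of 2. Alternatives were RLE size factors, no filter, leaving out mitochondrial and small RNA genes, a replicate block, replicates 4 and 5 only, limma-voom (limma 3.58.1), DESeq2 1.42.0, the groups alone, and each library left out. Same-numbered ATRA and DMSO libraries deviated from their group means with correlations from -0.0195 to 0.2 over all tested genes. The numbers were therefore not taken as pairs. That does not settle the matter for a single gene: CDK6 was highest in replicate 2 and lowest in replicate 5 in both arms at 4 and 12 h. All 9 genes are named, and of each other list the up to 3 genes of smallest p are, with exceptions marked; genes of like course are the 3 of highest correlation or fewer. The 9 genes and the lists were chosen with earlier results of these data known.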

Additional observations from a re-analysis of the deposited data

Results flagged for a closer look

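The effect of ATRA against DMSO differed between consecutive times at 17 points for the 9 genes (interaction in edgeR's quasi-likelihood fit, Benjamini-Hochberg adjusted p under 0.05). From 4 to 12 h CCND1 changed by 0.59 on the log2 scale, CCNE2 by -0.52 and CDK4 by -0.34. From 12 to 24 h CCND3 changed by -0.65. From 24 to 72 h CCND1 (1.10) and CCND3 (1.14) moved upward, and CCNE1 (-0.63), CDK4 (-0.32), CDK6 (-1.07) and CDC25A (-0.57) downward. From 72 to 120 h CCND1 (-1.88), CCND2 (-3.09), CCNE1 (-0.98), CCNE2 (-0.50), CDK2 (-0.97), CDK6 (-1.28) and CDC25A (-1.08) moved downward. Of all tested genes, 8.13% passed upward and 5.89% downward from 4 to 12 h, and 2.5% and 4.4% from 12 to 24 h. The shares were 21.5% and 24.5% from 24 to 72 h, and 17.5% and 21.8% from 72 to 120 h.

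Of these, the calls of CDK4 and CCNE2 from 4 to 12 h were lost with some single libraries left out, while their log2 changes stayed negative. CDK4 did not pass when DMSO replicate 2 (-0.33) or ATRA replicate 4 (-0.35) of 4 h was left out. Nor did it pass without DMSO replicate 4 (-0.30), ATRA replicate 2 (-0.32) or ATRA replicate 5 (-0.34) of 12 h. CCNE2 did not pass without DMSO replicate 5 of 4 h (-0.38) or ATRA replicate 5 of 12 h (-0.45). Neither of these 2 passed with replicates 4 and 5 only (-0.37 and -0.54). From 24 to 72 h neither CCNE1 (-0.50) nor CDK4 (-0.26) passed without ATRA replicate 5 of 72 h. CDK4 did not pass there with RLE size factors (-0.26), DESeq2 (-0.26) or replicates 4 and 5 only (-0.27) either. CCNE2 from 72 to 120 h lost its call under each of 6 of the 12 left-out libraries (-0.37 to -0.44), and also with RLE size factors (-0.42), limma-voom (-0.49), DESeq2 (-0.42) and replicates 4 and 5 only (-0.60). With the average of the neighbouring DMSO groups (24 h and 120 h) as the 72 h reference, the step of CCND3 from 24 to 72 h was 0.18 and that of CCNE1 from 72 to 120 h was -0.13, and neither passed. The other steps of 72 h are given in the next part.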

How the results depend on the processing

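At 120 h all 9 calls of ATRA against DMSO kept direction and threshold under all 14 alternatives tried (CCND2 from -3.14 to -2.90, CDK6 from -2.67 to -2.40, CCND3 from 0.38 to 0.57), and so did the 6 calls at 72 h, except under the other DMSO reference below. Of 144 log2 changes, the replicate block moved 8 past the threshold, 0 back and 0 in direction. With it CDK6 passed with ATRA at 4 h (-0.20), 12 h (-0.25) and 24 h (-0.18) and in DMSO at 12 h (-0.26) and 72 h (-0.25), CCNE1 with ATRA at 24 h (-0.32), and CDK2 in DMSO at 120 h (-0.18) and for the step from 4 to 12 h (-0.29). Low counts limit CCNE1 (48 to 426 a library) and CCNE2 (110 to 756) most.

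Averaging the neighbouring DMSO groups (24 h and 120 h) as the 72 h reference, a choice made after the values were seen, reversed CCND2 (-0.37), CCND3 (-0.26) and CCNE2 (-1.56) at 72 h, CCND2 (-0.31), CCNE2 (-1.18) and CDK2 (-0.38) from 24 to 72 h, and CCND3 (0.74), CCNE2 (1.10) and CDK4 (0.65) from 72 to 120 h. The low DMSO values of 72 h are what it replaces, with values of other times, so treatment and time cannot be told apart in it.

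Replicates 4 and 5 only, with fewer samples, left 1 passing gene of the 9 with ATRA at 4 h and 5 at 12 h, and for DMSO against untreated cells 4640 of all genes and 3 of the 9 at 4 h, 2806 of all genes at 12 h, 2703 at 24 h, and 3042 of all genes and 3 of the 9 at 120 h. For the change from 4 to 12 h they left 1624 of all genes and 1 of the 9, and from 12 to 24 h 904 of all genes. From 12 to 24 h 2 of the 9 passed without the filter and 3 with the groups alone; the cause was not tested.

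Reversed values near 0, none past the threshold, were CDK2 from 12 to 24 h (-0.0013 with RLE size factors, -0.0019 with DESeq2, -0.079 with replicates 4 and 5 only), CCNE2 from 12 to 24 h (0.042 with replicates 4 and 5 only) and CCND1 in DMSO at 24 h against untreated cells (-0.0041 with them).

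With single libraries left out, genes of the 9 passing ran from 1 to 5 for the change from 4 to 12 h, from 5 to 9 for ATRA at 12 h, from 3 to 4 for DMSO at 24 h and from 1 to 4 for DMSO at 120 h, where all genes passing ran from 3214 to 4511. All genes passing ran from 2630 to 3875 for the change from 4 to 12 h. They ran from 7773 to 8240 for ATRA at 12 h and from 3083 to 4072 for DMSO at 24 h. Values that changed sign ran from -0.16 to 0.039 (CDK6) and -0.075 to 0.11 (CCND2) from 4 to 12 h, from -0.059 to 0.076 (CDK2), -0.042 to 0.16 (CDK6), -0.038 to 0.13 (CCNE1) and -0.18 to 0.020 (CCNE2) from 12 to 24 h, from -0.015 to 0.057 (CCND1, DMSO at 24 h), -0.11 to 0.027 (CCND2, DMSO at 12 h) and -0.14 to 0.016 (CCND3, DMSO at 120 h) against untreated cells, from -0.059 to 0.17 (CCNE2) and -0.00029 to 0.17 (CCND2) for ATRA at 72 h, and from -0.16 to 0.00092 (CDK6) for DMSO from 72 to 120 h.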
